A study of Mus musculus with 2 samples.

Results

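Genes for the proteoglycans, microfibrils, adhesive glycoproteins and cross-linking enzymes of the extracellular matrix were followed in single nuclei of mouse quadriceps, a thigh muscle. The set holds 10 genes (Dcn, Lum, Bgn, Fbn1, Svep1, Ltbp1, Fn1, Postn, Plod2 and Loxl1) of the 53700 features counted, and each symbol named 1 feature. They were chosen with earlier results of these data known, for their levels in fibro-adipogenic nuclei. Fibro-adipogenic progenitors are the interstitial fibroblast lineage of muscle, and a nucleus was counted as one of them when it held at least 3 UMIs (unique molecular identifiers, each standing for 1 captured RNA molecule) over 7 marker genes, Pdgfra, Abca8a, Col1a1, Col1a2, Col3a1, Dpt and Mfap5. This gate took 355 of 7762 nuclei in the PTRF knockout and 57 of 10272 in WT. The knockout against WT differences in these nuclei are therefore given as a description.

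The PTRF knockout group was quadriceps of C57BL/6N mice aged 3 months that lack PTRF (current symbol Cavin1), which encodes a coat protein of caveolae, the small pits of the plasma membrane. The WT group was the same muscle of wild-type mice of the same strain and age. Each group was 1 library, so no test between genotypes was possible, and all intervals are exact 95% intervals that cover counting error only. No source used here gives the allele, how many animals went into a library, or their sex. Levels are in CPM, the usual scaling of the summed UMIs of a gene to the total of its class of nuclei. Each log2 ratio sets the knockout over WT, with 0.5 UMI added to both sums. Both libraries are of nuclei, so levels of cytoplasmic mRNA cannot be read from them.

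The libraries differed in depth and make-up. The knockout library held 16052317 UMIs, a median of 1562 per nucleus, and the WT library 9746980, a median of 703. The libraries shared 24 barcodes. Cavin1 had 2 UMIs in the knockout and 75 in WT. The knockout library held nuclei with Xist, the RNA of the inactive X chromosome, as well as nuclei with Y-linked transcripts, whereas no gated WT nucleus held Xist and 17 held Y-linked transcripts. Because a gate on UMIs depends on depth, the same values were also taken in the fibro-adipogenic-like cluster of a joint clustering made without the 10 genes, which held 596 knockout and 350 WT nuclei.

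Decorin (Dcn), lumican (Lum) and biglycan (Bgn) are small leucine-rich proteoglycans that bind collagen fibrils and set their diameter and spacing. Fibrillin-1 (Fbn1) builds the microfibrils on which elastic fibres form, and latent TGF-β binding protein 1 (Ltbp1) ties latent TGF-β to them and to fibronectin (Fn1), the adhesive glycoprotein that cells reach through integrins. Svep1 is a large adhesive glycoprotein, periostin (Postn) is a matricellular protein of injured and remodelling tissue, Plod2 hydroxylates lysines of the collagen telopeptides and Loxl1 is a lysyl oxidase, so that both enzymes act on cross-links. In skeletal muscle most of this matrix is made by the fibro-adipogenic lineage.

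The genes lie on 8 chromosomes in GRCm38, with Dcn (10: 97479609 to 97518143, plus strand) and Lum (10: 97565128 to 97572703, plus strand) as neighbours and Plod2 and Loxl1 both on chromosome 9. Ltbp1 (17: 75005568 to 75392512, plus strand) is the longest, at 387 kb, and contains the processed pseudogene Gm6276 on its own strand. Fbn1, Svep1, Fn1 and Plod2 overlap Gm9913, Gm26889, Apol7d and Gm38391 on the opposite strand. No source used here says whether strand was used in counting, so a part of the UMIs of these 5 genes is of uncertain origin. Of the 7 RefSeq windows found for 5 members (Bgn, Fbn1, Svep1, Ltbp1 and Postn), 3 are shown. These are both of Ltbp1, whose differences lay in classes that include macrophage-like, lymphatic endothelial-like and muscle nuclei, and 1 of Postn, which holds a motif. Each is the 250 bases before a RefSeq transcript start (GRCm38.p6, plus strand, 5′ to 3′), in lower case, with the letters TATAAA in capitals where they occur.
Ltbp1, first start (chr17:75005279-75005528): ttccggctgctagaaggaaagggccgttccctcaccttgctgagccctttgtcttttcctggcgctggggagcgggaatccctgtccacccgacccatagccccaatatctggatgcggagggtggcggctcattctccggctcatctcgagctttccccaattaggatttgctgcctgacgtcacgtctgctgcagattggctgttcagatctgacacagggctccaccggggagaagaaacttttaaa
Ltbp1, internal start (chr17:75178531-75178780): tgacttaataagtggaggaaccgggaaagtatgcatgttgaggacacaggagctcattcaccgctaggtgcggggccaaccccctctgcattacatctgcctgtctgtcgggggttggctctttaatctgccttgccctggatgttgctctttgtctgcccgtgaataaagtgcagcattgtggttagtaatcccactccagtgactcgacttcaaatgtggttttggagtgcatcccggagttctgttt
Postn (chr3:54360857-54361106): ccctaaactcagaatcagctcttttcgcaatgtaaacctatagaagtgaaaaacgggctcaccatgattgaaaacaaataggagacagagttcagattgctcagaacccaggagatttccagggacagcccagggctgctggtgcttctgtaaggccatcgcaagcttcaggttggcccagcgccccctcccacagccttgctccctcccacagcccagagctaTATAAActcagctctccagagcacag
TATAAA was searched on both strands, as was TGANTCA, the core of an AP-1 motif. In the Postn window TATAAA begins 26 bases before the start, and its other window, upstream of another start, has none. Svep1 holds TATAAA 42 bases before its start on the opposite strand, where its own strand reads TTTATA. Neither Ltbp1 window holds either motif, and no member window holds TGANTCA. Of 32851 RefSeq promoter windows, 12.4% hold TATAAA and 6.75% hold TGANTCA. A match is a description of the letters and not of a bound site.

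The gated nuclei carried the markers of their class in both libraries. All 12 further fibro-adipogenic markers that the gate did not use, among them Lama2, Ebf2 and Clec3b, were detected in both, with summed levels of 5876 CPM in the knockout and 5428 CPM in WT. The gate took 4.57% (4.12 to 5.06) of knockout nuclei and 0.555% (0.421 to 0.718) of WT nuclei. Of the gated nuclei, 117 in the knockout and 31 in WT held exactly 3 marker UMIs, and 145 knockout and 81 WT nuclei lay just outside the gate with 2. Other cell types left a trace: 67 knockout and 3 WT gated nuclei passed the gate of another type as well, and the 6 adipocyte markers summed to 377 UMIs in the knockout (659 CPM, all 6 detected) and to 0 UMIs in WT. The 8 pan-myonuclear transcripts went the other way, at 16688 CPM in the knockout and 41508 CPM in WT. The 6 tenocyte markers had 21 UMIs in the knockout and 1 in WT. The part of these differences in the results below was not tested, beyond the values given beside them.

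Svep1 and Plod2 were the genes higher in the knockout beyond 2-fold in the fibro-adipogenic gate, 2 of the 8 members that had at least 20 UMIs over both libraries. Dcn, Fbn1 and Ltbp1, which are the most abundant alongside Svep1, had ratios near 1. Lum, Postn and Plod2 had 0 WT UMIs. Of all 5006 genes measured in the gate, 13% were higher and 7.37% were lower beyond 2-fold, and no member was lower beyond it among the 8. Nothing is read from the count, since the members were chosen on this contrast. The median log2 ratio of the 10 genes was 0.51, and −0.15 with the genes at 0 in WT set to a floor of 3 UMIs, so its sign depends on how these are treated. The median of all measured genes was 0.17.

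**Figure D1:**
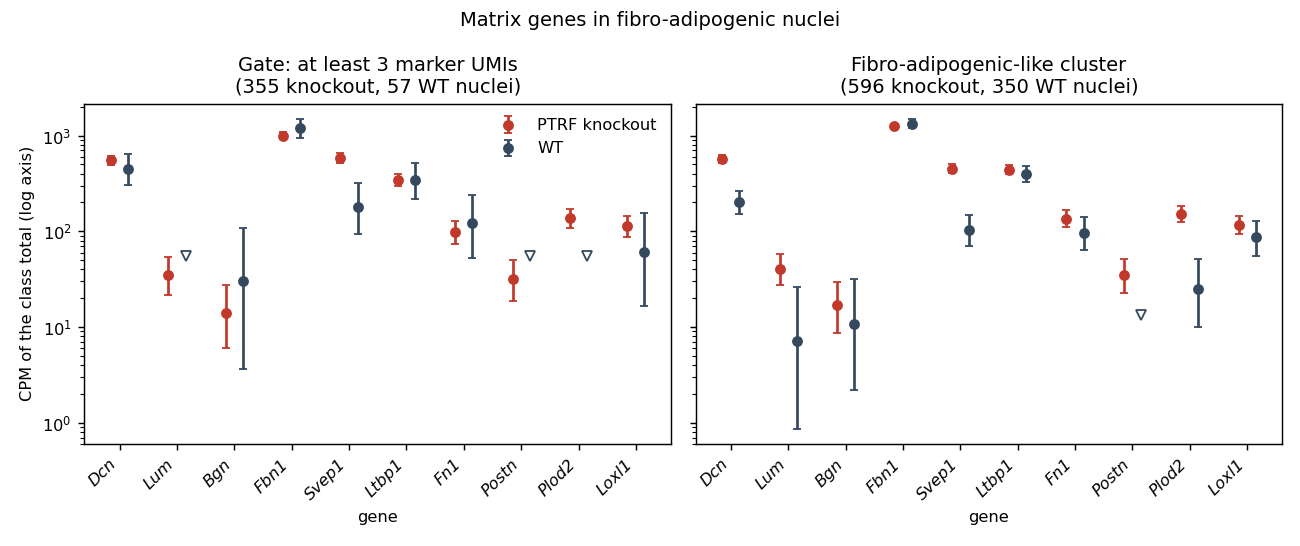
Level of each matrix gene in fibro-adipogenic nuclei, as CPM of the class total on a log axis, in PTRF knockout (red, left of each pair) and WT (dark, right). Bars are exact 95% Poisson intervals and open triangles mark the upper interval end of a gene with 0 UMIs. Svep1 and Plod2 lie higher in the knockout in both panels, Fbn1 and Ltbp1 lie close together, and Dcn separates in the cluster alone.

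Among the proteoglycans, Dcn had 316 UMIs in the knockout gate, or 552 CPM (493 to 616), and 30 UMIs in the WT gate, or 452 CPM (305 to 646). The log2 ratio of 0.27 had an interval from −0.25 to 0.88, so that no difference was detectable at this depth. In the fibro-adipogenic-like cluster Dcn was at 571 CPM (517 to 630) from 408 UMIs in the knockout and at 201 CPM (152 to 261) from 56 UMIs in WT, 2.82-fold higher in the knockout (log2 interval 1.10 to 1.94). The knockout level was thus alike in both kinds of class, and the WT level was lower in the cluster, which took in 350 WT nuclei where the gate took 57. The gate markers were themselves 1.80-fold higher in the cluster, at 2704 CPM in the knockout and 1497 CPM in WT. Pan-myonuclear transcripts there were at 20357 CPM in the knockout and 50095 CPM in WT.

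Lum had 20 UMIs in the knockout gate (34.9 CPM) and 0 in WT. Its level in the knockout was under the WT floor of 3 UMIs, 45.2 CPM, so no fold is given. In the cluster it had 29 UMIs in the knockout (40.6 CPM) and 2 in WT (7.18 CPM), with a log2 ratio of 2.20 (0.52 to 5.61). Bgn was near the limit of detection, with 8 UMIs in the knockout gate (14.0 CPM) and 2 in WT (30.2 CPM), and with 12 UMIs in the knockout cluster (16.8 CPM) and 3 in WT (10.8 CPM). Its ratio changed sign between gate and cluster and both intervals took in no difference.

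Of the microfibril genes, Fbn1 had the highest CPM of the set in the fibro-adipogenic nuclei of both libraries. It was at 1001 CPM (921 to 1086) from 573 UMIs in the knockout gate and at 1191 CPM (943 to 1484) from 79 UMIs in WT, a log2 ratio of −0.26 (−0.59 to 0.11). The cluster gave 1246 CPM from 890 UMIs in the knockout and 1332 CPM from 371 UMIs in WT, a log2 ratio of −0.10 (−0.27 to 0.08). Its level thus differed little between the libraries, and both intervals leave out a difference of 2-fold. Per UMI of the gate markers, the cluster ratio was −0.95 (−1.13 to −0.77).

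Ltbp1 was at 342 CPM (296 to 394) from 196 UMIs in the knockout gate and at 347 CPM (220 to 520) from 23 UMIs in WT, with a log2 ratio of −0.05 (−0.65 to 0.67). In the cluster it was at 441 CPM from 315 UMIs in the knockout and 395 CPM from 110 UMIs in WT, with a log2 ratio of 0.16 (−0.16 to 0.49). Within this lineage no difference in Ltbp1 was detectable at this depth.

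Svep1 had 334 UMIs in the knockout gate, or 583 CPM (523 to 650), and 12 UMIs in WT, or 181 CPM (93.5 to 316). It was 3.10-fold higher in the knockout, with a log2 ratio of 1.63 (0.87 to 2.66). In the cluster Svep1 was at 451 CPM from 322 UMIs in the knockout and at 104 CPM from 29 UMIs in WT, 4.27-fold higher (log2 2.09, 1.56 to 2.72). The intervals of the 2 libraries did not overlap in either class. Adipocyte-like nuclei were rich in Svep1 in the knockout, as described further on, and 42 knockout and 0 WT gated nuclei lay in the adipocyte-like cluster. In gated nuclei of the fibro-adipogenic-like cluster alone, 301 in the knockout and 49 in WT, the log2 ratio was 1.13 (0.35 to 2.16). In the cluster the adipocyte markers had 35 UMIs in the knockout and 5 in WT. Without nuclei that passed another gate the ratio in the gate was 1.39 (0.60 to 2.42).

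Fn1, the adhesive glycoprotein, had 56 UMIs in the knockout gate (97.8 CPM, 73.9 to 127) and 8 in WT (121 CPM, 52.1 to 238). In the cluster it had 97 UMIs in the knockout (136 CPM) and 27 in WT (96.9 CPM), with a log2 ratio of 0.47 (−0.14 to 1.16). Both intervals took in no difference. Postn had 18 UMIs in the knockout gate (31.4 CPM) and 0 in WT, again under the WT floor. In the cluster, where more WT nuclei were counted, Postn had 25 UMIs in the knockout (35.0 CPM, 22.7 to 51.7) and 0 in WT. With WT set to its floor of 3 UMIs it was 3.25-fold higher, and the exact interval of the ratio began at 2.45-fold. These 25 UMIs came from 15 of 596 knockout nuclei, and 0 of 350 WT nuclei held one.

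Plod2, the telopeptide lysyl hydroxylase, had 78 UMIs in the knockout gate, or 136 CPM (108 to 170), and 0 UMIs in WT, where the upper end of the interval was 55.6 CPM. With WT set to its floor of 3 UMIs, Plod2 was 3.01-fold higher in the knockout, and the exact interval of the ratio began at 2.39-fold. In the cluster Plod2 had 108 UMIs in the knockout (151 CPM, 124 to 183) and 7 in WT (25.1 CPM, 10.1 to 51.8), 5.64-fold higher, with a log2 ratio of 2.50 and an interval that leaves out 2-fold. Loxl1, the lysyl oxidase of the set, had 65 UMIs in the knockout gate (114 CPM, 87.6 to 145) and 4 in WT (60.3 CPM, 16.4 to 154). Its cluster levels were 116 CPM from 83 UMIs in the knockout and 86.1 CPM from 24 UMIs in WT, a log2 ratio of 0.41 (−0.24 to 1.15). The hydroxylase thus had separate intervals in the 2 libraries and the oxidase did not; the difference between these ratios was not tested.

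In the cluster, 5 of the 9 measured genes were higher in the knockout beyond 2-fold (Dcn, Lum, Svep1, Postn and Plod2) and 0 were lower, beside 14.8% and 6.36% of 6380 measured genes. Per UMI of the gate markers, which were themselves higher in this knockout cluster, the count was 3 (Lum, Svep1 and Plod2). The share of all genes beyond 2-fold was not taken on that scale, so the count of 3 cannot be read against 14.8%. On that scale Dcn, at a log2 ratio of 0.64 (0.25 to 1.08), was no longer past 2-fold, and the interval of Lum took in no difference. The median of the CPM ratios over all 10 was 0.99, beside 0.25 for all measured genes. The larger count than in the gate rests on the classes compared: Lum and Postn were under the WT floor in the gate, and the WT level of Dcn was lower in the cluster. A list of genes of activated fibroblasts (Cthrc1, Lrrc15, Runx1, Meox1, Fap, Nox4 and Adam12) was also higher in the knockout. It was at 1643 CPM in the knockout cluster, with 6 of 7 detected, and at 459 CPM in WT, with 5 of 7 detected, 3.56-fold higher. In the gate it was at 1501 CPM in the knockout and 724 CPM in WT, 2.05-fold higher. Of the 1173 UMIs of this list in the knockout cluster, Fap had 540, Nox4 422 and Adam12 124. Cthrc1 had 0 UMIs there and Lrrc15 had 1. The list was also 1.85-fold higher in knockout nuclei of no gate, so its sum does not by itself show an activated state.

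The share of nuclei with a UMI was compared after each nucleus was thinned to 500 UMIs, for which 6 of the 57 gated WT nuclei were too shallow. Svep1 was then found in 25.6% (21.2 to 30.5) of 355 gated knockout nuclei and in 9.80% (3.26 to 21.4) of 51 gated WT nuclei, against 42.0% of knockout and 15.8% of WT nuclei before thinning. Dcn was found in 25.6% of knockout and 19.6% of WT nuclei, Fbn1 in 37.2% and 39.2%, and Ltbp1 in 17.5% and 17.6%. Plod2 was found in 6.76% (4.38 to 9.89) of knockout nuclei and in 0 of 51 WT nuclei, which allows a share of up to 6.98%. Any of the 10 genes was found in 74.1% (69.2 to 78.6) of knockout and 60.8% (46.1 to 74.2) of WT nuclei. In nuclei of no gate, which are mostly muscle nuclei but also hold ungated nuclei of other types and muscle nuclei with Ltbp1, any of the 10 was found in 10.5% of 5710 knockout nuclei and 6.58% of 7873 WT nuclei. Ltbp1 alone was found in 5.03% of these knockout and 2.51% of these WT nuclei. In muscle clusters, Dcn was found in 0.321% of thinned knockout and 0.433% of thinned WT nuclei, and Svep1 in 0.161% and 0.695%. Median depth before thinning was 1122 UMIs in gated and 1536 in ungated knockout nuclei, and 776 and 695 UMIs in WT.

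Levels of different genes were compared per kilobase of annotated exon, although capture at the 3′ end makes length a poor guide to the number of molecules. Whether introns were counted is unknown, and with them the length of the whole gene would be the divisor. Per kilobase of exon Dcn, at 94.6 (84.4 to 106) CPM per kb, and Fbn1, at 82.5 (75.9 to 89.6), led in the knockout gate with overlapping intervals. Svep1 (36.2), Loxl1 (34.4), Ltbp1 (32.0) and Plod2 (25.3) formed a middle tier in which neighbours overlapped. Lum (14.3), Fn1 (8.37), Postn (3.61) and Bgn (2.29) came below; the interval of Lum overlapped those of Plod2 and Fn1, and that of Postn overlapped that of Bgn. In the WT gate Fbn1, at 98.2 CPM per kb, and Dcn, at 77.5, also led. The order did not hold per kilobase of gene: in the knockout gate Dcn stood alone at 14.3 CPM per kb, Fbn1 (4.83) was near Lum (4.61) and Loxl1 (4.46), and Ltbp1 (0.885) came last.

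Several members differed in level between fibro-adipogenic states. In muscle, Pi16 and Dpp4 mark a fibroblast state that is shared by many tissues, and Smoc2 is a marker of another fibro-adipogenic state. In the fibro-adipogenic-like cluster, 79 knockout and 46 WT nuclei held a UMI of Pi16 or Dpp4 and none of Smoc2, and 202 knockout and 70 WT nuclei held Smoc2 and neither of the others. A further 28 knockout nuclei and 1 WT nucleus held both kinds of marker. The remaining 287 knockout and 233 WT nuclei held none of these markers. Because these markers took part in the clustering but not in the choice of members, the split describes nuclei within each library. Fbn1 was at 2610 CPM in the Pi16 or Dpp4 nuclei and 783 CPM in the Smoc2 nuclei of the knockout (log2 1.74, 1.46 to 2.01), and at 2930 and 721 CPM in WT (2.01, 1.51 to 2.55). Fn1 had the widest contrast, at 419 and 42.3 CPM in the knockout (3.27, 2.33 to 4.39) and 353 and 31.4 CPM in WT (3.22, 1.35 to 6.68). Both libraries thus had higher Fbn1 and Fn1 in the Pi16 or Dpp4 nuclei.

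Ltbp1 followed the same order, at 804 and 349 CPM in the knockout (1.21, 0.74 to 1.66) and 732 and 361 CPM in WT (1.02, 0.17 to 1.89). Loxl1 was at 280 and 77.6 CPM in the knockout (1.85, 0.95 to 2.75) and at 190 and 47.0 CPM in WT, where the interval took in no difference. Dcn and Svep1 had the opposite order in the knockout. Dcn was at 233 CPM in the Pi16 or Dpp4 nuclei and 642 CPM in the Smoc2 nuclei (−1.43, −2.21 to −0.79), and Svep1 at 221 and 550 CPM (−1.28, −2.08 to −0.62). In WT their ratios were −0.35 (−1.92 to 0.96) and −0.31 (−3.01 to 1.70). Plod2, at 81.6 and 166 CPM in the knockout, had an interval that took in no difference (−2.41 to 0.13). The 28 knockout nuclei with both kinds of marker were high in genes of either order. Fbn1 was there at 2913 CPM, Fn1 at 388 CPM, Dcn at 888 CPM and Svep1 at 777 CPM.

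**Figure D2:**
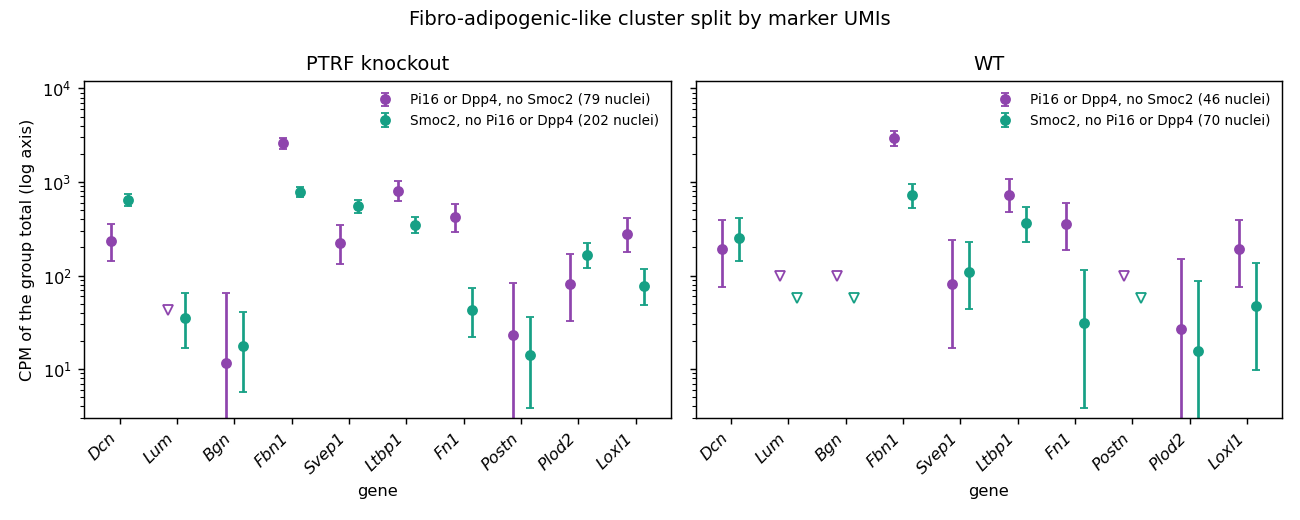
Level of each matrix gene in nuclei of the fibro-adipogenic-like cluster that held Pi16 or Dpp4 but no Smoc2 (purple) or Smoc2 but neither of the others (green), as CPM on a log axis, with the knockout left and WT right. Bars are exact 95% Poisson intervals and open triangles the upper interval end at 0 UMIs. Fbn1, Ltbp1, Fn1 and Loxl1 lie higher in the purple groups of both libraries, and Dcn and Svep1 lie higher in the green group of the knockout.

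Where the UMIs of a gene lay in the whole library differed between members. The cluster of fibro-adipogenic-like nuclei held 79.1% of all Dcn UMIs of the knockout and 40.9% of those of WT, and 73.3% and 64.1% of the Fbn1 UMIs. The adipocyte-like cluster held 80.9% of all 1933 Svep1 UMIs of the knockout and 26.9% of the 182 of WT. Plod2 was split in the knockout between adipocyte-like nuclei (47.2%) and fibro-adipogenic-like nuclei (39.9%), as was Loxl1 (43.4% and 37.6%). Fn1 UMIs of the knockout lay in macrophage-like (39.9%) and fibro-adipogenic-like nuclei (39.1%), whereas macrophage-like nuclei held 7.59% of those of WT. Ltbp1 UMIs lay mostly in muscle clusters, at 68.0% in the knockout and 68.8% in WT. These shares depend on how many nuclei of each class a library held: the adipocyte-like cluster had 1091 knockout and 231 WT nuclei.

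**Figure D3:**
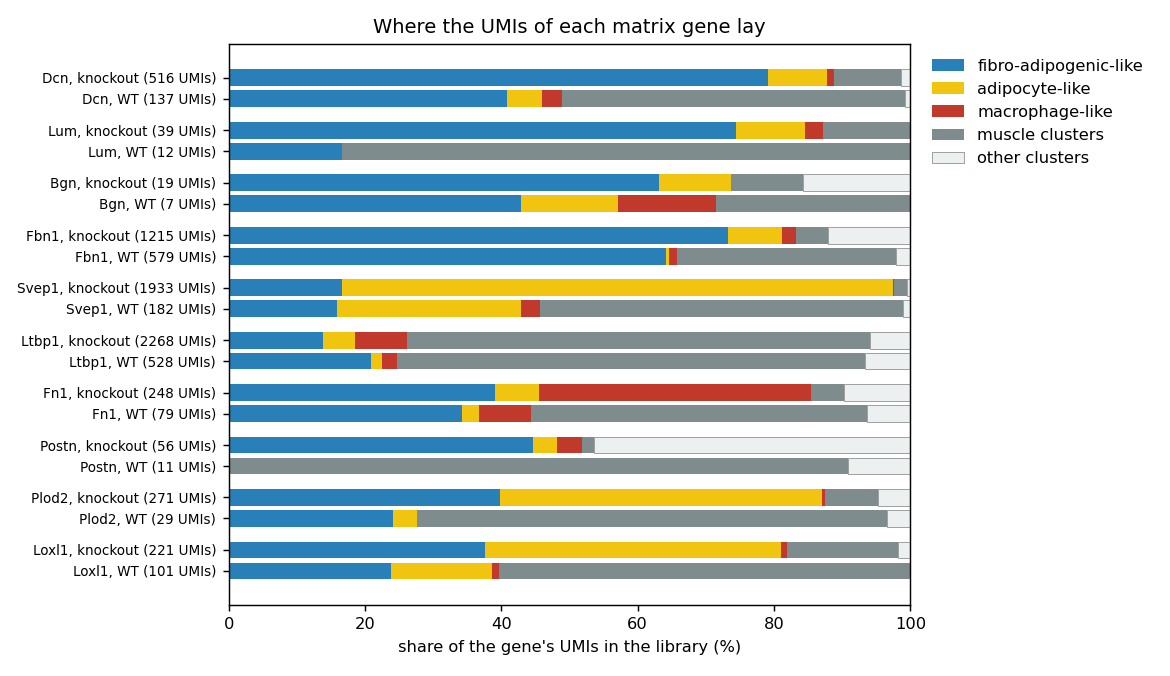
Share of the UMIs of each matrix gene, in percent of the library's UMIs of that gene, that lay in each class of clusters, with the knockout bar above the WT bar. Svep1 of the knockout lies mostly in adipocyte-like nuclei, Dcn and Fbn1 in fibro-adipogenic-like nuclei and Ltbp1 in muscle clusters, and in WT the muscle share is larger for Svep1, Plod2, Dcn and Fbn1.

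In adipocyte-like nuclei, which passed on Adipoq, Plin1 and 4 further markers, the same pair of genes stood higher. Svep1 was at 762 CPM (725 to 801) from 1563 UMIs in the knockout cluster and 212 CPM (157 to 280) from 49 UMIs in WT, 3.56-fold higher (log2 1.83, 1.44 to 2.29). Plod2 had 128 UMIs in the knockout (62.4 CPM) and 1 in WT (4.32 CPM), with a log2 ratio of 3.27 (1.35 to 9.17). Fbn1 had 97 UMIs in the knockout (47.3 CPM) and 3 in WT, with a log2 ratio of 1.65 (0.28 to 4.17). The adipocyte gate gave Fbn1 at 15.9 CPM in the knockout, under the WT floor of 27.9 CPM, and 0 UMIs in WT, so no fold is given. Between Y-marked nuclei of the cluster it was at 9.39 CPM in the knockout and 9.85 CPM in WT, from 2 and 1 UMIs. Loxl1, at 46.8 CPM in the knockout and 64.9 CPM in WT, had an interval that took in no difference. Of 8819 genes measured in this cluster, 14.4% were higher and 11.1% lower beyond 2-fold, and 3 of the 6 measured members were higher. By the adipocyte gate, 702 knockout and 84 WT nuclei, Svep1 was at 819 CPM in the knockout and 196 CPM in WT (log2 2.03, 1.45 to 2.76). In that gate 2 of 6 measured members were higher (Svep1 and Plod2) and 2 lower (Dcn and Loxl1, both with intervals that took in no difference), beside 11.6% higher and 14.2% lower of all 7626 genes. The adipocyte markers were at 3249 CPM in the knockout cluster and 2409 CPM in WT, and pan-myonuclear transcripts at 10880 and 27657 CPM, and their part in these ratios was not tested.

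Macrophage-like nuclei, 174 in the knockout and 90 in WT, differed in Ltbp1 and Fn1. Ltbp1 was at 901 CPM (772 to 1046) from 173 UMIs in the knockout and 152 CPM (75.8 to 272) from 11 UMIs in WT, 5.70-fold higher (log2 2.51, 1.69 to 3.60). Fn1 was at 516 CPM (419 to 628) from 99 UMIs in the knockout and 82.8 CPM (30.4 to 180) from 6 UMIs in WT, 5.78-fold higher (log2 2.53, 1.47 to 4.12). Of 2757 genes measured there, 15.7% were higher and 4.93% lower beyond 2-fold. By the macrophage gate, 105 knockout and 49 WT nuclei, Ltbp1 had 174 UMIs in the knockout and 5 in WT, and Fn1 had 84 and 0. With WT set to its floor of 3 UMIs Fn1 was 8.48-fold higher, and the exact interval of its ratio began at 6.75-fold. Ltbp1 and Fn1 were the 2 measured members in that gate, beside 16.4% higher and 4.98% lower of all 2128 genes. The 174 Ltbp1 UMIs came from 23 of the 105 nuclei and the 84 Fn1 UMIs from 20. After thinning to 500 UMIs, Ltbp1 was found in 14.3% (8.22 to 22.5) of gated knockout and 8.11% (1.70 to 21.9) of gated WT nuclei, with intervals that overlapped. The macrophage markers themselves were lower in the knockout cluster, at 3416 CPM against 4677 CPM in WT, with all 8 detected in both, and the gate markers of the fibro-adipogenic lineage were alike, at 135 CPM in the knockout and 138 CPM in WT. Lymphocyte markers were 2.19-fold higher there, from 229 UMIs in the knockout and 39 in WT, and pan-myonuclear transcripts were at 12586 CPM in the knockout and 33743 CPM in WT. The part of these in the ratios was not tested. Between Y-marked nuclei Ltbp1 was at 635 CPM in the knockout and 51.8 CPM in WT (3.05, 1.04 to 8.96), whereas the ratio of Fn1, 0.81 (−0.80 to 3.40), took in no difference.

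Mural-like nuclei, the pericytes and smooth muscle cells of vessels, held as many knockout UMIs of Postn as the fibro-adipogenic-like cluster, at a higher level. Postn had 25 UMIs in 67 mural-like knockout nuclei (355 CPM, 230 to 524), beside 35.0 CPM in the fibro-adipogenic-like cluster. In 73 mural-like WT nuclei it had 1 UMI (interval 0.404 to 88.9 CPM), with a log2 ratio of 3.92 (1.87 to 9.84). Of 1261 genes measured in this cluster, 22.5% were higher and 10.5% lower beyond 2-fold, and pan-myonuclear transcripts were at 10413 CPM in the knockout and 54741 CPM in WT. Ltbp1 was at 355 CPM in the knockout and 558 CPM in WT there, with an interval that took in no difference. In the cluster with lymphatic endothelial markers, which also held markers of blood endothelium, Ltbp1 had 108 UMIs in 234 knockout nuclei (368 CPM) and 0 in 32 WT nuclei. With WT set to its floor of 3 UMIs it was 2.82-fold higher, and the exact interval of the ratio began at 2.25-fold. Fbn1 there had 137 UMIs in the knockout (467 CPM) and 4 in WT (174 CPM), with a log2 ratio of 1.26 (0.03 to 3.32), beside 10.2% of genes higher and 8.54% lower. The fibro-adipogenic gate markers had 51 UMIs in that knockout cluster (174 CPM, all 7 detected) and 0 in WT, and 5 knockout and 0 WT gated nuclei lay in it. Mural markers were at 116 CPM in the knockout and 480 CPM in WT, and pan-myonuclear transcripts at 20099 CPM in the knockout and 34400 CPM in WT. Their part was not tested.

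**Figure D4:**
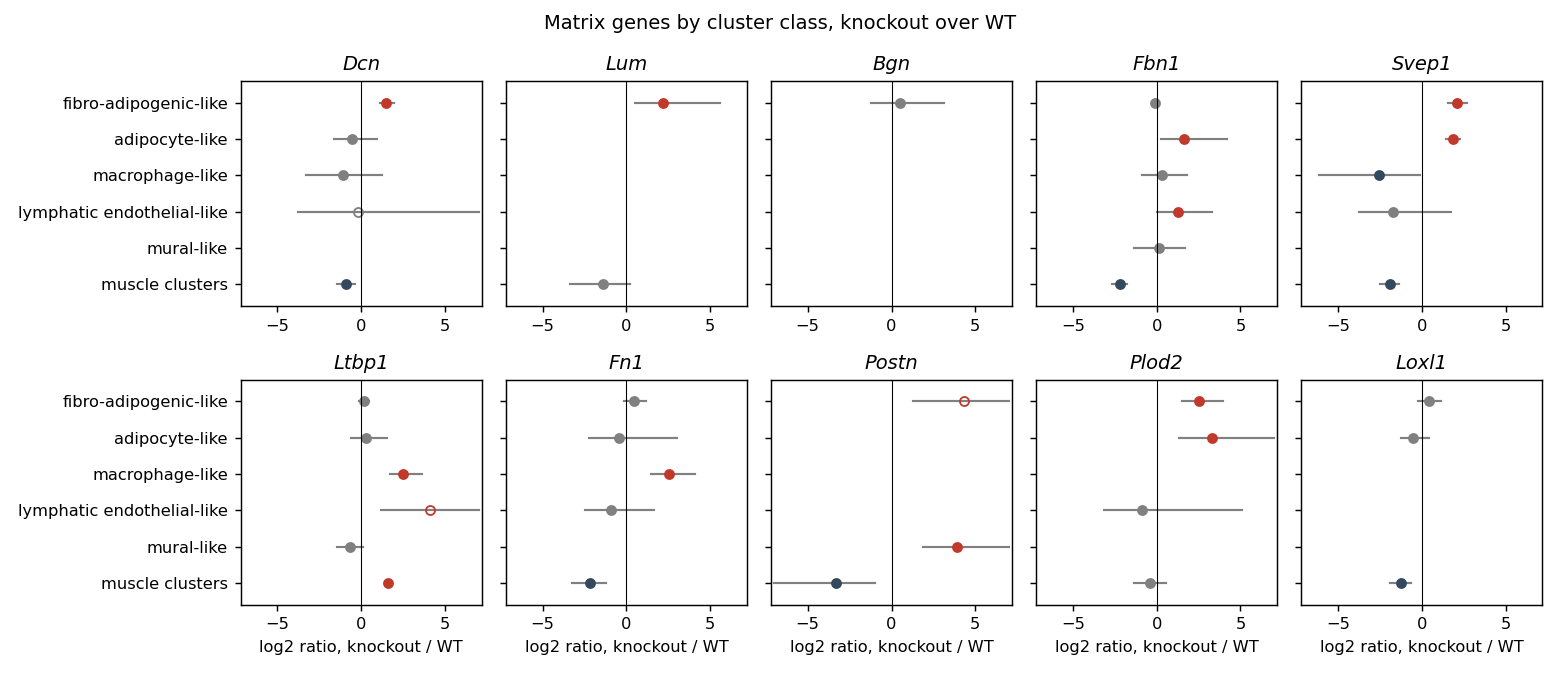
Log2 ratio, knockout over WT, of each matrix gene in 6 classes of clusters, shown where the gene had at least 5 UMIs over both libraries. Lines are exact 95% intervals, cut at the edge of the panel; red points lie higher and dark points lower with an interval that leaves out no difference, and open points had 0 UMIs in 1 library. Svep1 lies higher in fibro-adipogenic-like and adipocyte-like nuclei and lower in muscle clusters. Ltbp1 lies higher in macrophage-like and lymphatic endothelial-like nuclei and in muscle clusters.

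In the 8 clusters rich in pan-myonuclear transcripts, 5600 knockout and 9496 WT nuclei, Ltbp1 went against the other members. It was at 121 CPM (115 to 127) from 1543 UMIs in the knockout and 40.0 CPM (36.0 to 44.3) from 363 UMIs in WT, 3.03-fold higher (log2 1.60, 1.43 to 1.77). Of 16055 genes measured in these nuclei, 4.38% were higher and 27.1% lower beyond 2-fold. Fbn1 was at 4.48 CPM in the knockout and 20.5 CPM in WT (log2 −2.19, −2.65 to −1.76), Svep1 at 2.83 and 10.7 CPM (−1.91, −2.51 to −1.35) and Fn1 at 0.943 and 4.30 CPM (−2.15, −3.26 to −1.23). Dcn, at 4.01 and 7.60 CPM, and Loxl1, at 2.83 and 6.72 CPM, were also lower in the knockout. These levels are low, and several marker lists of other cell types were lower in the knockout muscle clusters as well. The fibro-adipogenic gate markers were at 13.4 CPM in the knockout and 45.4 CPM in WT, the macrophage markers at 13.8 and 44.4 CPM and the blood endothelial markers at 12.4 and 68.9 CPM. Other lists were higher in the knockout. The 12 further fibro-adipogenic markers summed to 973 CPM in the knockout and 372 CPM in WT. The genes behind this sum were not separated in these clusters. In nuclei of the mural gate, also rich in pan-myonuclear transcripts (68697 CPM in the knockout), Lama2 held 2228 of the list's 2623 knockout UMIs. Lama2 was at 959 CPM there in the knockout and 173 CPM in WT. Of the others only Cd34 was higher there, at 1 knockout UMI, so the sum does not by itself show a rise across the list. The mural markers were at 378 and 277 CPM and the activated fibroblast genes at 75.8 and 55.3 CPM. The part of these lists in the ratios was not tested. In nuclei of no gate, a mixture with cells of other types, 2 of 9 measured members were higher beyond 2-fold (Ltbp1, at 124 CPM in the knockout and 50.4 CPM in WT, and Plod2, at 6.41 and 2.86 CPM) and 0 lower, beside 4.71% and 24.3% of all genes.

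Across the single clusters, the higher Ltbp1 of the knockout was seen in most muscle clusters. In cluster 11, which is led by Col22a1 and others and has 113 knockout and 118 WT nuclei, Ltbp1 was at 920 CPM (809 to 1041) in the knockout and 262 CPM (182 to 367) in WT (log2 1.79, 1.29 to 2.37). Clusters 3 and 5, which hold mostly knockout nuclei, were at 138 and 151 CPM in the knockout and at 35.7 and 54.8 CPM in WT. The WT value of cluster 3 came from 3 UMIs in 72 nuclei (7.37 to 104 CPM). These clusters held 644 and 487 of the knockout Ltbp1 UMIs. The part of cluster make-up in the ratio over all muscle clusters was not tested. Clusters 1, 2 and 4 had log2 ratios of 0.85, 1.19 and 0.91 with intervals above 0, and the interval of cluster 6 took in no difference. Cluster 0, led by Myoz2, Csrp3 and Ankrd2, was lower, at 14.3 CPM (9.60 to 20.6) in the knockout and 27.8 CPM (21.4 to 35.6) in WT. A cluster held mostly by 1 library may be that library and not a type of nucleus. After thinning to 500 UMIs, Ltbp1 was found in 4.75% (4.21 to 5.34) of knockout and 1.99% (1.69 to 2.33) of WT muscle nuclei.

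**Figure D5:**
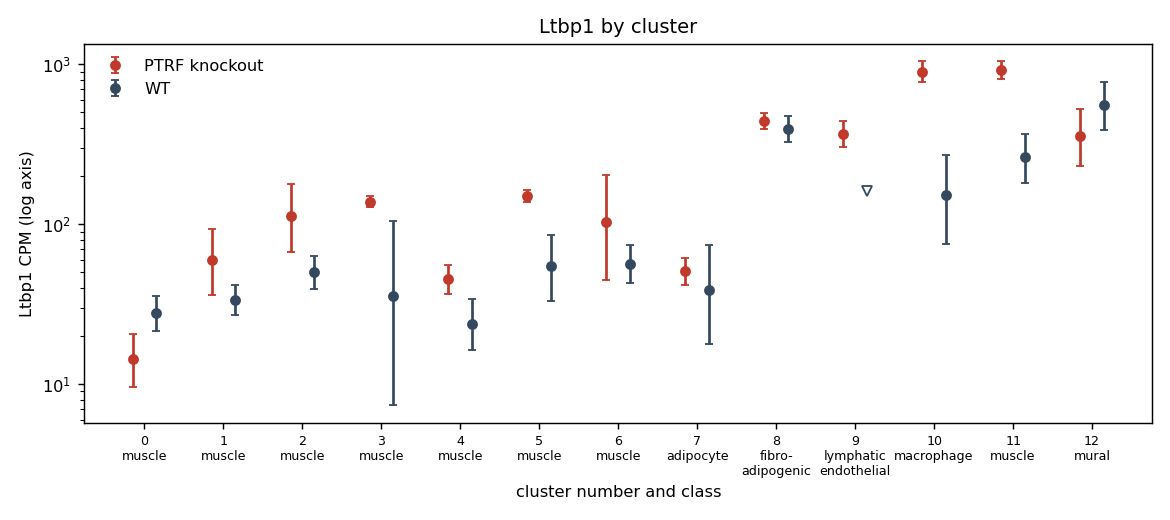
Ltbp1 level in each of the 13 clusters, as CPM on a log axis, in PTRF knockout (red, left of each pair) and WT (dark, right), with exact 95% Poisson intervals; the open triangle is the upper interval end at 0 UMIs. The knockout lies higher in clusters 10 and 11, at 901 and 920 CPM, and lower in cluster 0.

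Since the knockout library held nuclei of both kinds, the values were split by sex-linked transcripts. In the fibro-adipogenic-like cluster, 119 knockout nuclei held Xist alone, 119 knockout nuclei held Y-linked UMIs alone and 68 WT nuclei held Y-linked UMIs alone. Between Y-marked nuclei Svep1 was at 387 CPM in the knockout and 85.5 CPM in WT (log2 2.09, 1.06 to 3.54), and Dcn at 489 and 232 CPM (1.05, 0.35 to 1.87). Plod2 had 22 UMIs in Y-marked knockout nuclei (118 CPM) and 0 in Y-marked WT nuclei. Fbn1 was at 934 CPM in Y-marked knockout and 1270 CPM in Y-marked WT nuclei (−0.45, −0.80 to −0.08). The direction for Svep1, Plod2 and Dcn was therefore the same within Y-marked nuclei as in the whole cluster.

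Within the knockout, Xist-marked nuclei of this cluster had more Plod2, at 252 CPM, than Y-marked ones, at 118 CPM (log2 1.08, 0.30 to 1.92), and more Fn1, at 194 and 91.3 CPM (1.07, 0.18 to 2.04). Postn had 9 UMIs in Xist-marked and 1 in Y-marked nuclei (2.93, 0.58 to 8.89). Svep1 was at 432 CPM in Xist-marked and 387 CPM in Y-marked nuclei (0.16, −0.34 to 0.66). In the gate, with 100 Xist-marked and 69 Y-marked knockout nuclei, the intervals of Plod2 (0.38, −0.47 to 1.33) and Fn1 (0.58, −0.49 to 1.85) took in no difference. Dcn had opposite orders, 0.43 (0.01 to 0.85) in the cluster and −0.51 (−0.95 to −0.06) in the gate. In adipocyte-like nuclei Svep1 was at 858 CPM in Xist-marked and 845 CPM in Y-marked knockout nuclei, and at 108 CPM in Y-marked WT nuclei. Plod2 in these nuclei was at 74.2 CPM in Xist-marked and 23.5 CPM in Y-marked knockout nuclei (1.53, 0.39 to 3.32), and at 9.85 CPM in Y-marked WT nuclei. Its ratio between Y-marked nuclei, 0.80 (−1.91 to 6.82), took in no difference, from 5 knockout UMIs and 1 WT UMI. Fbn1 was at 54.7 CPM in Xist-marked and 9.39 CPM in Y-marked knockout nuclei (2.23, 0.64 to 5.62). In muscle clusters Ltbp1 was at 71.9 CPM in Xist-marked and 130 CPM in Y-marked knockout nuclei (−0.85, −1.19 to −0.53), and at 30.8 CPM in Y-marked WT nuclei. Sex and animal cannot be told apart in these libraries.

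Other matrix genes were read from lists for the same functions, by a rule that names up to 3 genes a list in each direction beyond 2-fold; the rule was set for the gate and extended to the cluster after its values were seen. Counts are to be read against all measured genes, of which 14.8% were higher and 6.36% lower in the cluster. Of the further small leucine-rich proteoglycans, 3 of 4 measured genes were higher in the knockout cluster and 0 lower: Aspn (67.2 CPM in the knockout, 28.7 CPM in WT), Podn (86.8 and 39.5 CPM) and Ecm2 (65.8 and 17.9 CPM). Of 16 genes for collagen hydroxylation and cross-linking, 5 were higher and 0 lower, with Loxl3 (63.0 and 21.5 CPM), P4ha1 (137 and 61.0 CPM), a prolyl hydroxylase subunit, and Pcolce (49.0 and 14.4 CPM), which enhances procollagen processing, as the named ones. Of 10 microfibril and elastic fibre genes, 2 were higher and 0 lower, Ltbp4 (129 and 57.4 CPM) and Fbln1 (25.2 and 7.18 CPM), a share near that of all genes. The list medians were 1.12, 0.22 and 0.57, beside 0.25 for all genes.

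Of 16 further matricellular and adhesive genes, 4 were higher and 1 lower in the knockout cluster, beside 14.8% and 6.36% of all genes. The higher ones were Tnc (25 UMIs in the knockout and 1 in WT), which encodes the matricellular tenascin-C, Hspg2 (325 and 158 CPM), which encodes perlecan, and Abi3bp (580 and 262 CPM), while Spon1 (60.2 and 126 CPM) was lower. Of 19 genes for TGF-β and integrin partners, 4 were higher, with Smad2 (130 and 57.4 CPM), Itgb1 (189 and 82.6 CPM) and Itgb8 (26 UMIs in the knockout and 1 in WT) named, and 1 was lower, Tgfb3 (22.4 and 50.3 CPM). Of 10 proteases and inhibitors, 2 were higher, Fap (756 and 219 CPM), the fibroblast activation protein, which is also on the list of activated fibroblast genes, and Adamts12 (1074 and 528 CPM). In the gate, Smoc1 had the highest log2 ratio of the named genes, at 220 CPM from 126 UMIs in the knockout and 15.1 CPM from 1 UMI in WT (3.29, 1.36 to 9.18). Itgav, Smad2, Ltbp3 and Ecm2 were also higher in the knockout gate and Pcolce2 (66.4 and 166 CPM) and Vcan (129 and 286 CPM) lower. The gate lists had 0 or 1 gene beyond 2-fold in a direction, apart from TGF-β and integrin partners, with 2 of 15 higher, and 13% of all genes were higher and 7.37% lower in the gate.

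The genes whose level followed the mean of the 10 members most closely over 12 combinations of class and library were Fap (Pearson r 0.96), Cyth3 (0.94), Gpm6b (0.93), Arhgap21 (0.93) and Gli3 (0.91), out of 1355 candidates. This likeness is a description: the 12 points come from 2 libraries and share their depth. Of the members themselves, Dcn (0.84) and Fbn1 (0.80) followed their common mean more closely than Ltbp1 (0.54) and Postn (0.52).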

How the data were processed

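Single-nucleus RNA was captured with a 10x Genomics 3′ kit, per the labels' protocols, from 1 PTRF knockout and 1 WT library. The deposited matrices hold the authors' raw UMI counts; per the file headers, Cell Ranger 6.0.0 wrote them. Seurat 4.1.1, STAR, GRCm38 and mm10 appear in the submitters' processing notes. No source used here gives the annotation release or says whether introns were counted. A nucleus was kept with 200 or more genes and no more than 5% of UMIs from mitochondrial genes. UMIs were summed per class and library. Those outside the fibro-adipogenic gate went to the type with the most marker UMIs, if at least 3. Clusters (Python 3.11.15, scanpy 1.11.5, igraph 0.11.9) came from variable genes without the members. No doublet caller was run; nuclei passing another gate were left out as an alternative. Genes with at least 20 UMIs over both libraries counted as measured. Ratio intervals were tested on simulated Poisson counts of whole classes. These leave out the uneven spread of UMIs over nuclei, so the intervals were not tested for it. Coordinates are from GENCODE M21 and promoters from RefSeq. The members, lists and rules were chosen with earlier results of these data known. All 10 members are named throughout; other matrix genes were ranked by how far their interval lay from no difference.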

Additional observations from a re-analysis of the deposited data

Results flagged for a closer look

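For 5 genes the knockout to WT log2 ratio had opposite directions in 2 classes of nuclei, with intervals on either side of no difference; the difference between the classes was not tested. Svep1 had ratios of 2.09 in fibro-adipogenic-like nuclei and −1.91 in muscle clusters, 4.00 apart. Dcn was 2.82-fold higher in fibro-adipogenic-like nuclei and had a ratio of −0.92 in muscle clusters, 2.42 apart on the log2 scale. Fbn1 had 1.65 in adipocyte-like nuclei and −2.19 in muscle clusters, 3.84 apart. The higher ratio was not seen between Y-marked adipocyte-like nuclei (−0.33, −4.33 to 5.81, from 2 knockout UMIs and 1 WT UMI), in the adipocyte gate the knockout level was under the WT floor, and 42 knockout and 0 WT gated fibro-adipogenic nuclei lay in the adipocyte-like cluster. Fn1 had 2.53 in macrophage-like nuclei and −2.15 in muscle clusters, 4.68 apart; between Y-marked macrophage-like nuclei it was 0.81 (−0.80 to 3.40). Postn had 3.92 in mural-like nuclei and −3.30 in muscle clusters, 7.22 apart, from 1 knockout and 10 WT UMIs in the muscle clusters. Each of the lower ratios comes from muscle clusters. There several marker lists of other cell types were also lower in the knockout, and the sums of the further fibro-adipogenic and mural lists were higher. The genes behind these sums were not separated in the muscle clusters.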

How the results depend on the processing

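No paired analysis was possible because each genotype had 1 library. The difference in the share of gated nuclei, 4.02 percentage points, was 5.10 with at least 2 marker UMIs, 2.02 with at least 5, 3.19 without nuclei passing another gate, 2.94 after thinning to 500 UMIs, 3.04 in nuclei with at least 500 genes and 1.60 in Y-marked nuclei. The cluster was chosen after seeing the data, and the share difference was 3.40 for gated nuclei inside it and 1.34 for its Y-marked nuclei. The count of members higher beyond 2-fold, 2, was 1 with at least 5 marker UMIs, after thinning and in Y-marked nuclei, and 5 in the cluster. The count lower, 0, was 1 with at least 5 marker UMIs. Of all measured genes, 13% were higher and 7.37% lower in the gate as reported, and 14.8% and 6.36% in the cluster. For the other settings these shares were not taken, so nothing is read from their counts. Bgn turned from −1.34 to 0.48 in the cluster. The median of the members was 0.51 and ranged from −0.15 to 0.99. Svep1 was higher in 15 of 15 alternatives (1.13 to 2.47), as was Plod2 (1.64 to 4.36), Dcn in 14 of 15 and Ltbp1 in 9 of 15. Fbn1 was lower in 14 of 15. Plod2 had 0 WT UMIs in the gate as reported, and wherever WT is at 0 its ratio rests on the 0.5 UMI added to both sums. The 57 gated WT nuclei limit what can be detected. Where values move, the cause was not tested.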
